A study of Mus musculus with 8 samples.

Results

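The genes described here are the ErbB receptors and the feedback inhibitors of their signal to the MAP kinase ERK: Egfr, Erbb2, Erbb3, Errfi1, Dusp6, Spry2, Spry4, Spred1 and Spred2. They were taken by name through their Ensembl gene identifiers, and all 9 were found among the 48440 genes of the table. RNA was sequenced from jejunal epithelial cells of 8 female mice of the Sox9-EGFP line on a C57BL/6J background, sorted for a low level of the green reporter of the transcription factor Sox9 and against Annexin-V, CD31, CD45 and Sytox-blue. All 8 animals were raised germ-free and came as 4 littermate pairs, A to D. In each pair the Conventionalized animal was moved at 8 to 10 weeks of age to another animal facility and gavaged with feces of conventionally raised mice of the line, and was studied 2 weeks later, while its littermate stayed Germfree. The move and the microbes therefore cannot be told apart, and each group has 4 animals.

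ErbB receptors are tyrosine kinases on the cell surface. Egfr binds ligands such as EGF and TGF-alpha, Erbb3 binds neuregulins but has little kinase activity of its own, and Erbb2 binds no known ligand and serves as the partner of the others. The activated receptors switch on Ras, Raf, MEK and ERK. ERK and other signals then induce inhibitors of the same route: Errfi1 (also called Mig6) blocks the receptor kinase, Dusp6 is a phosphatase that inactivates ERK, and Sprouty and Spred proteins act between receptor and Raf. In the intestinal crypt, EGF signals from Paneth and mesenchymal cells maintain stem cell division, and the ErbB inhibitor Lrig1 restrains them.

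Levels are in CPM, the signal of a gene scaled to a common library total, computed from the authors' normalized values. Depth on an approximate read scale ran from 6209041 to 19139685 per library. The Germfree animal of pair C stood farthest from its group, with a median correlation of 0.792 across genes with the other 3, where the other 7 libraries had 0.871 to 0.943 with their own groups. The Conventionalized animal of pair A had the highest goblet marker sum, 50886 CPM, where the other 7 libraries had 1580 to 8201 CPM. Its median correlation with its own group, 0.918, was within the range above. The libraries of these 2 animals are those said below to have stood apart, and an alternative fit left both out. Leukocyte markers summed to 12.8 to 31.3 CPM over the 8 libraries, and 0 of 12 reached the expression minimum of 10 CPM in 4 libraries. The endothelial marker Pecam1 (CD31), against which cells were sorted, was at 2.15 to 9.84 CPM in Conventionalized and 13.4 to 25.3 CPM in Germfree libraries. Stem cell markers (Lgr5, Olfm4 and 10 others) summed to 5615 to 11129 CPM in Conventionalized and 1014 to 5798 CPM in Germfree libraries. Enteroendocrine markers summed to 8988 to 23057 CPM and 37397 to 88854 CPM, without overlap between the groups. Proliferation markers summed to 1346 to 1774 CPM and 198 to 915 CPM, also without overlap. In such bulk samples, fewer cells of a type and less RNA per cell cannot be told apart.

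None of the 6 family genes that reached the expression minimum passed the test between the groups. limma called 495 of 10053 tested genes at an adjusted p under 0.05, 4.92% of them, and 0 of these 6. At an unadjusted p under 0.05 there were 2 of the 6, Erbb2 with the higher mean in Conventionalized and Errfi1 with the higher mean in Germfree animals, where 27.8% of all tested genes were at that level. The groups did not overlap for 1 of the 6, Erbb2, against 14.9% of all tested genes. The median log2 difference (Conventionalized minus Germfree) was 0.04 over the 6 and 0.32 over all tested genes, and over all genes it was 0.03 with a minimum of 1 CPM in place of 10. Spry2, Spry4 and Spred2 stayed under the minimum and are described without an adjusted p. With the littermate pair as a block, which raised the calls over all genes to 1317, Errfi1 was called lower in Conventionalized animals, and with limma's array weights, a weight for each library, Erbb2 was called higher.

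**Figure D1:**
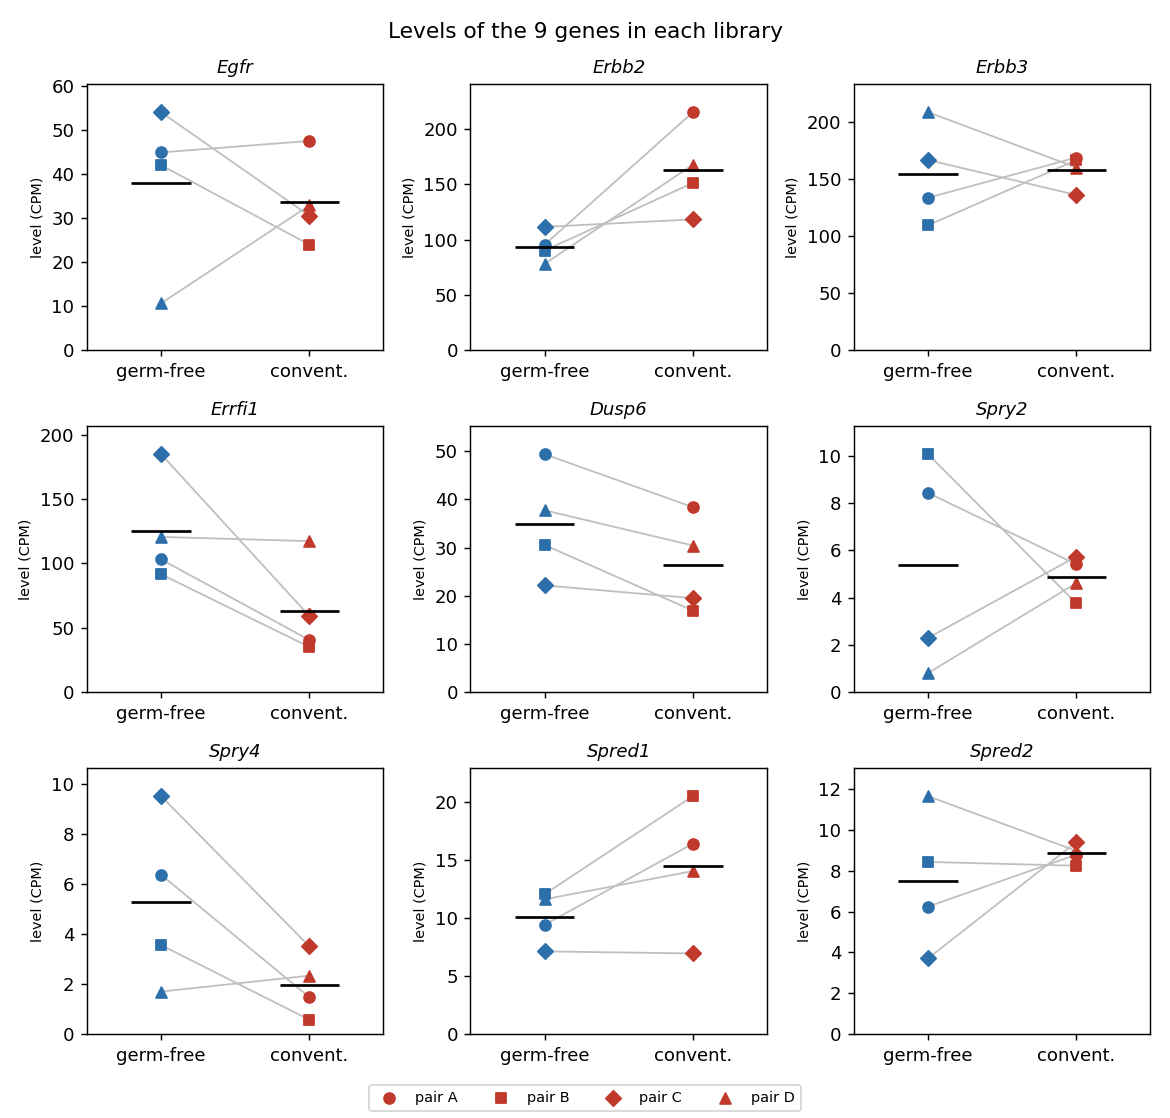
Level in CPM (vertical axis, from 0) of each of the 9 genes in the 4 Germfree (blue) and 4 Conventionalized (red, "convent.") libraries. Marker shapes give the littermate pair, grey lines join littermates and black bars are group means. The Erbb2 points of the groups do not overlap, at 78.1 to 111.6 CPM in Germfree and 118.4 to 215.4 CPM in Conventionalized animals, whereas those of the other 8 genes do.

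Among the receptors, Erbb2 (ENSMUSG00000062312.5, GRCm38 chromosome 11, 98412470 to 98437716) was the gene whose groups stood apart. It was at 215.4, 151.3, 118.4 and 167.8 CPM in the Conventionalized animals of pairs A to D and at 95.5, 90.2, 111.6 and 78.1 CPM in the Germfree animals. Every Conventionalized library was above every Germfree one, and the gap was narrow because the Conventionalized animal of pair C was close to its littermate. The means were 163 ± 40.4 and 93.8 ± 13.9 CPM (SD, n = 4 animals each), a log2 difference of 0.77 (SE 0.28, 95% confidence interval 0.17 to 1.38), 0.45 above the median of all tested genes and 0.83 above it with no expression minimum, where that median was -0.06. This did not pass (limma adjusted p = 0.12). With library weights the log2 difference was 0.87 (adjusted p = 0.0154). With the littermate block the adjusted p was 0.0731, and without the 2 libraries that stood apart the log2 difference was 0.72 (adjusted p = 0.195). Within pairs A to D the log2 differences were 1.17, 0.74, 0.08 and 1.10, so that all 4 were positive. Proliferation marker sums also separated the groups, as given above, and their part in the Erbb2 difference was not tested. The exons of Erbb2 share 9 bases with those of Mien1 on the opposite strand, and no other family gene shares exon bases with another gene in GENCODE M21.

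The window before the Erbb2 start is shown because Erbb2 was the receptor with the largest difference. RefSeq (GRCm38.p6) places it at chr11:98412234-98412483 on the plus strand, and its GC content is 66%. It was searched on both strands for 5 short motifs: the ETS core CCGGAA and the AP-1 site TGANTCA, letters bound by factor families that ERK activates, the GC box GGGCGG, the cAMP response element TGACGTCA and the TATA box TATAAA. The last 2 motifs were added after the sequences had been seen. None of the 5 is in this window, so no letter is in capitals.
Erbb2: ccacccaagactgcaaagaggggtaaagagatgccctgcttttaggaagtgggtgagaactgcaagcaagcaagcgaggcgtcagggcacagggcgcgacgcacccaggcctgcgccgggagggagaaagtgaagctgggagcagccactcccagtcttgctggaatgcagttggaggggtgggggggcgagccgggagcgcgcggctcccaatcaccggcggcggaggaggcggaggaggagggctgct

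Erbb3 (ENSMUSG00000018166.8, chromosome 10, 128567523 to 128589652) had the smallest spread of the 6 over the 8 libraries, with an SD of 0.28 on the log2 scale. It was at 168.7, 166.6, 136.0 and 160.0 CPM in the Conventionalized animals of pairs A to D and at 133.5, 109.3, 166.5 and 208.5 CPM in the Germfree animals. All 4 Conventionalized values lay inside the Germfree range. The means were 158 ± 15.0 and 154 ± 43.0 CPM (SD, n = 4 animals each), with a log2 difference of 0.07 (SE 0.29, 95% confidence interval -0.55 to 0.69) and limma adjusted p = 0.889. Its sign was positive in pairs A and B and negative in pairs C and D.

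Egfr (ENSMUSG00000020122.16, chromosome 11, 16752203 to 16918158) was at 47.5, 24.0, 30.5 and 32.9 CPM in the Conventionalized animals of pairs A to D and at 44.9, 42.0, 54.0 and 10.6 CPM in the Germfree animals. The Germfree animal of pair D had the lowest value of all 8, while the other 3 Germfree animals were above 3 of the 4 Conventionalized ones. The means were 33.7 ± 9.94 and 37.9 ± 18.9 CPM (SD, n = 4 animals each), with a log2 difference of 0.01 (SE 0.45, 95% confidence interval -0.94 to 0.97) and limma adjusted p = 0.987. Without the Germfree library of pair D the log2 difference was -0.51 (adjusted p = 0.291), and its sign also turned with library total scaling, a larger pseudocount, library weights and when the Conventionalized animal of pair A or of pair D was left out. No direction can therefore be given for Egfr. The fourth receptor gene, Erbb4, was under the minimum, at 0.0473 to 4.48 CPM over the 8 libraries.

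Per kilobase of exon, Egfr was the lowest of the 3 receptors in all 8 libraries. Its level was 2.98 ± 0.878 CPM per kb in Conventionalized and 3.35 ± 1.67 in Germfree animals (SD, n = 4 each). Erbb2 was at 31.3 ± 7.75 and 18.0 ± 2.67 CPM per kb, and Erbb3 at 26.2 ± 2.50 and 25.7 ± 7.14. The order of Erbb2 and Erbb3 differed between the groups. The ratio of Erbb3 to Erbb2 per length was 0.678, 0.953, 0.995 and 0.826 in Conventionalized animals A to D and 1.21, 1.05, 1.29 and 2.31 in Germfree animals A to D. All Conventionalized ratios were under 1 and all Germfree ratios above it, and the nearest values of the groups, 0.995 and 1.05, were close. A ratio within a library does not depend on a factor shared by all genes of that library. A factor of 1 gene in 1 library would enter it. Erbb3 values were whole multiples of the step of their library (described below) in 8 libraries, those of Erbb2 in 1. Where the ratio crosses 1 also depends on the exon lengths. In CPM, Erbb3 was above Erbb2 in Conventionalized animals B (166.6 and 151.3) and C (136.0 and 118.4). The ratio was looked at after the levels had been seen and is given without a test. Exon length is that of all annotated exons of a gene together, so a gene read mainly from a short transcript would be understated on this scale. Which transcripts were read was not measured, since the values are sums per gene.

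**Figure D2:**
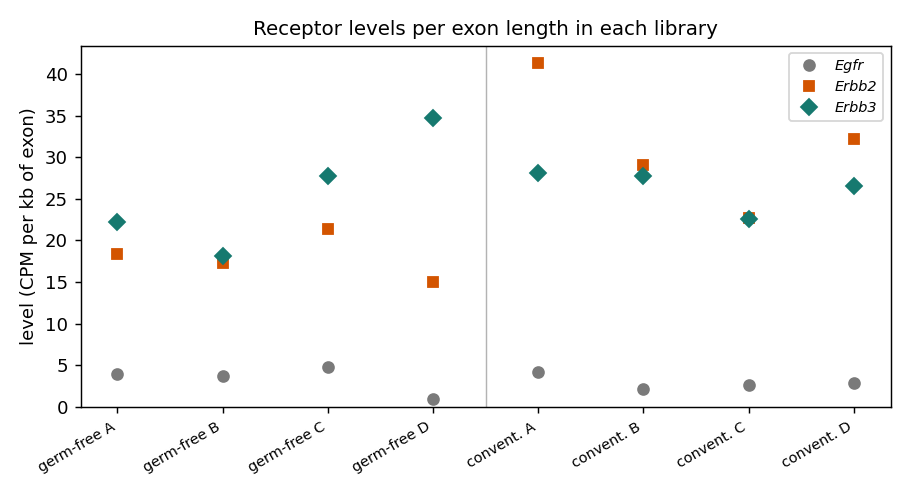
Level in CPM per kilobase of exon (vertical axis, from 0) of Egfr, Erbb2 and Erbb3 in each library, with Germfree animals A to D on the left of the line and Conventionalized ("convent.") animals A to D on the right. Egfr is lowest throughout, and Erbb3 lies above Erbb2 in the 4 Germfree libraries and under it in the 4 Conventionalized ones.

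Among the 3 tested feedback genes (Errfi1, Dusp6 and Spred1), Errfi1 (ENSMUSG00000028967.10, chromosome 4, 150853919 to 150868892), the inhibitor that binds the receptor kinase, differed most between the means. It was at 40.5, 35.1, 59.1 and 117.3 CPM in the Conventionalized animals of pairs A to D and at 103.1, 91.5, 184.8 and 120.6 CPM in the Germfree animals. The Conventionalized animals of pairs A, B and C were below every Germfree one, and that of pair D was level with its littermate and above 2 of the Germfree values. The means were 63.0 ± 37.6 and 125.0 ± 41.6 CPM (SD, n = 4 animals each), a log2 difference of -1.10 (SE 0.38, 95% confidence interval -1.91 to -0.28). It did not pass in the fit without pairs (limma adjusted p = 0.105). With the littermate pair as a block Errfi1 fell in Conventionalized animals (SE 0.30, adjusted p = 0.0368), and so it did without the Conventionalized library of pair D (log2 difference -1.47, adjusted p = 0.0372). Without the 2 libraries that stood apart the log2 difference was -0.74 (adjusted p = 0.177). Within pairs A to D it was -1.34, -1.37, -1.64 and -0.04.

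Other readouts are set beside the Errfi1 values, and their likeness to these values was not measured. A list of 15 genes held immediate-early genes (Fos, Jun, Egr1, Atf3 and others) and the heat shock genes Hspa1a and Hspa1b. Cells induce immediate-early genes within minutes of growth factor signals and also of tissue dissociation. The list summed to 6438, 3454, 5882 and 11786 CPM in Conventionalized animals A to D. In Germfree animals A to D it summed to 8606, 6000, 9146 and 7848 CPM. As for Errfi1, the lowest sum was in the Conventionalized animal of pair B and the highest among Conventionalized animals in that of pair D. The latter was also the highest sum of all libraries, whereas Errfi1 was highest in the Germfree animal of pair C. limma called 0 of the 14 tested genes of this list, against 4.92% of all tested genes. At an unadjusted p under 0.05 there were 0, against 27.8%. The median log2 difference of these 14 was -0.26, against 0.32 for all tested genes, with 4 positive and 10 negative values. Hspa1a (0.07) and Hspa1b (0.56) were among the positive ones. Enteroendocrine marker sums were higher in every Germfree than in every Conventionalized library, as given above. Among Germfree animals these sums were highest in pair A and lowest in pair D, whereas Errfi1 was highest in pair C and lowest in pair B. The part of these in the Errfi1 difference was not tested.

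RefSeq gives 2 start sites for Errfi1. The deposited values are sums per gene, so they do not show which start was used. The windows before both are shown because Errfi1 was the one family gene that passed with the littermate block, with motif matches in capitals (the same 5 motifs as for Erbb2). They lie at chr4:150853546-150853795 and chr4:150854820-150855069 on the plus strand of GRCm38.p6 and have GC contents of 38% and 64.8%. The first holds none of the 5 motifs. The second holds 3 GC boxes, of which 2 overlap, a cAMP response element that starts at position -51 and a TATA box that starts at -28, counted back from the start site. Of 32851 RefSeq windows of the same 250 bases, 32.7% hold a GC box, 1.55% this cAMP response element, 12.4% the TATA box, 12% the ETS core and 6.75% the AP-1 site. The cAMP response element and the TATA box were added to the search after these sequences had been seen. Their shares therefore cannot tell whether the 2 matches are unusual. Windows of other family genes were searched too and are not printed. That of Egfr held 1 ETS core, at position -119, and 1 GC box. That of Spred1 held 2 GC boxes and that of Spred2 held 1, while those of Dusp6 and Spry2 held none of the 5 motifs. All of these are matches of letters, not sites of binding.
Errfi1 first start: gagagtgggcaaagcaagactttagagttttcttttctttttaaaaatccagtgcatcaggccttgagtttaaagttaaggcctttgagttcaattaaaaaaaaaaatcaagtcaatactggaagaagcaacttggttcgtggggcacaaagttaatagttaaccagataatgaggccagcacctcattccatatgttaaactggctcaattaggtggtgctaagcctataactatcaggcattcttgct
Errfi1 second start: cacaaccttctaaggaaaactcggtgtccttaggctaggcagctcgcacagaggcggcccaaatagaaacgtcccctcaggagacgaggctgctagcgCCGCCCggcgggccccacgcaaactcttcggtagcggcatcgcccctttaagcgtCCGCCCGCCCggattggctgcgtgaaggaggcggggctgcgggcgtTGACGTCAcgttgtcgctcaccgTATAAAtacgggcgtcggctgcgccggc

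Dusp6 (ENSMUSG00000019960.7, chromosome 10, 99263231 to 99267489), the ERK phosphatase, was at 38.4, 16.9, 19.5 and 30.4 CPM in the Conventionalized animals of pairs A to D and at 49.4, 30.5, 22.2 and 37.7 CPM in the Germfree animals. The groups overlapped widely, yet each Conventionalized animal was below its own littermate. The means were 26.3 ± 9.96 and 35.0 ± 11.5 CPM (SD, n = 4 animals each), with a log2 difference of -0.42 (SE 0.34, 95% confidence interval -1.15 to 0.31) and limma adjusted p = 0.409. With the littermate block it did not pass either (adjusted p = 0.276). Within pairs A to D the log2 differences were -0.36, -0.83, -0.18 and -0.31.

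The Sprouty genes were low. Spry2 (ENSMUSG00000022114.4, chromosome 14, 105891947 to 105896819) was at 5.40, 3.75, 5.73 and 4.61 CPM in the Conventionalized animals of pairs A to D and at 8.42, 10.1, 2.30 and 0.807 CPM in the Germfree animals. The Germfree values spanned the Conventionalized ones on both sides, with higher values in pairs A and B and lower ones in pairs C and D. Behind these values stood 9 to 113 reads per library, the lowest in the Germfree animal of pair D. Spry4 (ENSMUSG00000024427.6) was at 1.47, 0.577, 3.51 and 2.34 CPM in the Conventionalized animals and at 6.38, 3.56, 9.53 and 1.70 CPM in the Germfree animals, from 6 to 83 reads. It was lower in the Conventionalized animal in pairs A, B and C and higher in pair D, and the groups overlapped. Without the expression minimum, the log2 difference was 0.30 (SE 0.59, 95% confidence interval -0.92 to 1.52) for Spry2 and -1.17 (SE 0.58, 95% confidence interval -2.37 to 0.04) for Spry4. The added 0.5 shrinks differences at such levels.

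The Spred genes, whose products hold back Raf activation at the membrane, were also low. Spred1 (ENSMUSG00000027351.14, chromosome 2, 117121374 to 117182279) was at 16.4, 20.5, 6.96 and 14.1 CPM in the Conventionalized animals of pairs A to D and at 9.43, 12.1, 7.13 and 11.6 CPM in the Germfree animals. It was higher in the Conventionalized animal in pairs A, B and D and level in pair C, where both animals had the lowest value of their group. The means were 14.5 ± 5.69 and 10.1 ± 2.27 CPM (SD, n = 4 animals each), with a log2 difference of 0.44 (SE 0.39, 95% confidence interval -0.40 to 1.27) and limma adjusted p = 0.452. Spred2 (ENSMUSG00000045671.17, chromosome 11, 19924375 to 20024026) was at 8.79, 8.25, 9.41 and 8.98 CPM in the Conventionalized animals and at 6.25, 8.44, 3.71 and 11.7 CPM in the Germfree animals. The Conventionalized animals lay within a narrow band inside the wider Germfree range. Its log2 difference without the expression minimum was 0.33 (SE 0.43, 95% confidence interval -0.57 to 1.22).

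**Figure D3:**
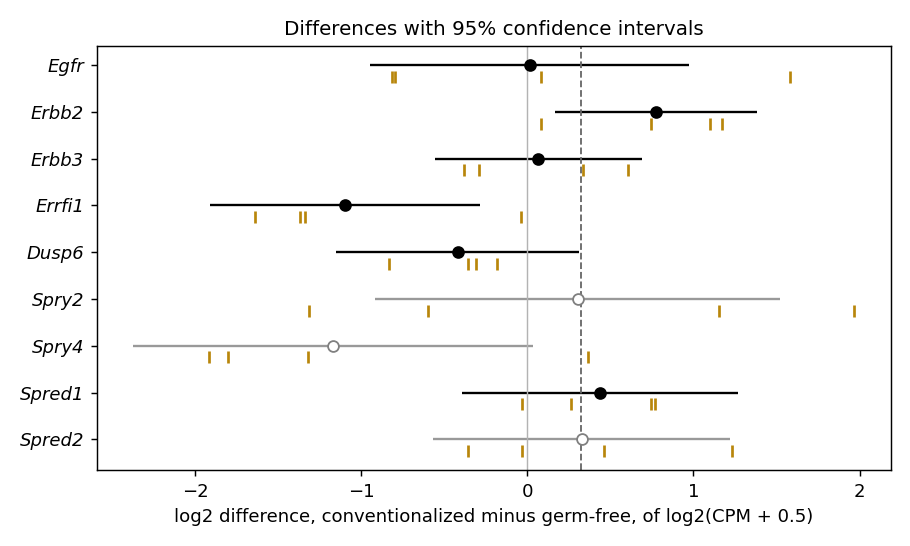
Log2 difference between Conventionalized and Germfree animals of log2(CPM + 0.5) (horizontal axis) for each of the 9 genes, with the limma 95% confidence interval. Filled points are genes that reached the expression minimum, open grey ones the 3 that did not, and gold ticks are the 4 littermate pairs. The dashed line at 0.32 is the median of all tested genes. Only the intervals of Erbb2 (0.17 to 1.38) and Errfi1 (-1.91 to -0.28) exclude 0, before any adjustment for the number of genes tested.

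Per kilobase of exon the order of the 9 levels was not the same in both groups. In Conventionalized animals it was, from high to low, Erbb2 at 31.3 ± 7.75 CPM per kb, Erbb3 at 26.2 ± 2.50, Errfi1 at 17.6 ± 10.5, Dusp6 at 8.40 ± 3.18, Egfr at 2.98 ± 0.878, Spry2 at 2.34 ± 0.424, Spred1 at 2.14 ± 0.838, Spred2 at 1.92 ± 0.104 and Spry4 at 0.416 ± 0.263 (SD, n = 4 animals). In Germfree animals it was Errfi1 at 34.9 ± 11.6 CPM per kb, Erbb3 at 25.7 ± 7.14, Erbb2 at 18.0 ± 2.67, Dusp6 at 11.2 ± 3.68, Egfr at 3.35 ± 1.67, Spry2 at 2.59 ± 2.17, Spred2 at 1.63 ± 0.730, Spred1 at 1.48 ± 0.334 and Spry4 at 1.11 ± 0.718. Errfi1 and Erbb2 thus changed places. In both groups, the ranges of mean ± 1 SD overlapped for neighbours among Erbb2, Erbb3 and Errfi1 and for neighbours among Egfr, Spry2, Spred1 and Spred2, and did not overlap for Dusp6 and Egfr. The Errfi1 level had the widest spread in log2 of the 6 tested genes, with an SD of 0.83 over all libraries.

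The patterns of the 6 tested genes were compared with each other. Likeness was measured as the root-mean-square difference of the log2 levels over the 8 libraries, each gene centred on its mean, so that 0 is an identical pattern. Among the 6 tested genes the nearest were Erbb2 and Spred1 at 0.469 and Erbb2 and Erbb3 at 0.491, and the farthest were Errfi1 and Spred1 at 1.14. For the 3 genes with the lowest p, the nearest of all tested genes were looked up. These were picked as the smallest distances, so they lie below the median by selection, and no test was made. Nearest to Errfi1 were Camk2n1 at 0.225, Tsc22d1 at 0.251 and Acta1 at 0.273, where the median of all genes was 1.01. Nearest to Erbb2 were Arhgap17, Plcl2 and Cyfip1 at 0.156 to 0.157, against a median of 0.569. Nearest to Dusp6 were Ift172 at 0.155, Paxx at 0.176 and Sytl1 at 0.178, against a median of 0.656.

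Of 74 other genes of the pathway 73 were found in the table and 50 were tested. limma called 1 lower in Conventionalized animals and 0 higher, where 3.76% of all tested genes were called lower and 1.16% higher. The median log2 difference of the 50 was 0.18, against 0.32 for all tested genes, with 28 positive and 22 negative values. The groups did not overlap for 6 of the 50, against 14.9% of all tested genes. With the littermate block 6 of the 50 were called, where 1317 of all 10053 tested genes were. Rhbdf2, Lrig1 and Ccnd1 were called higher and Rasal2, Dusp1 and Etv5 lower. Ccnd1, the cyclin of cell cycle entry, was named after its values were seen. Without the 2 libraries that stood apart 5 of 49 tested were called, where 642 of all 9610 tested genes were. Without the Germfree library of pair B it was 4 of 49, where 782 of all 9837 were called.

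Of 11 ligand genes 3 were tested (Tgfa, Hbegf and Nrg4) and 0 were called. Hbegf, a membrane-bound ligand of Egfr, had the highest level of these 3. It was at 89.5, 34.1, 91.8 and 258.1 CPM in the Conventionalized animals of pairs A to D and at 70.8, 63.0, 56.6 and 79.2 CPM in the Germfree animals. The groups overlapped, with the highest value in the Conventionalized animal of pair D and the lowest in that of pair B (limma adjusted p = 0.507). It was named after its values were seen. The 8 ligand genes under the minimum were at most 21.6 CPM, reached by Areg. Nrg4, a neuregulin, had the lowest p of the 3 tested ligand genes, at 14.6 ± 4.35 CPM in Conventionalized and 8.09 ± 4.19 CPM in Germfree animals (SD, n = 4 each; limma adjusted p = 0.181). The other neuregulin genes were under the minimum, at most 9.06 CPM, reached by Nrg1. Without the minimum, the log2 differences were -1.52 for Nrg1, -0.38 for Nrg2 and -1.12 for Nrg3, the opposite sign to Nrg4. These were named after their values were seen. Of 4 genes of ligand release by proteolysis 0 of 4 were called. Rhbdf2, an inactive rhomboid that carries the protease Adam17 to the cell surface, was at 31.0 ± 8.78 and 15.3 ± 6.29 CPM, a log2 difference of 1.05 (SE 0.37, adjusted p = 0.108), and rose with the littermate block (adjusted p = 0.042).

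Of 7 tested inhibitors at the level of the receptor 0 were called. Lrig1, which lowers ErbB protein and also marks crypt stem cells, was at 160.7, 278.3, 224.6 and 315.2 CPM in the Conventionalized animals of pairs A to D and at 121.7, 134.2, 69.1 and 148.0 CPM in the Germfree animals. The groups did not overlap. The log2 difference was 1.06 (SE 0.33) with limma adjusted p = 0.0854, and Lrig1 rose with the littermate block (adjusted p = 0.0348), with upper-quartile scaling (0.0498), with library weights (0.0211) and without the 2 libraries that stood apart (0.0338). Stem cell marker sums were higher in Conventionalized animals in all 4 pairs, and their part in the Lrig1 difference was not tested.

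Adaptors and the kinase cascade gave 0 calls. Among 8 tested adaptors and exchange factors the lowest p was that of the adaptor Shc1, at 110 ± 11.5 and 74.8 ± 21.9 CPM (SD, n = 4 each; limma adjusted p = 0.186). Among 9 tested kinases and scaffolds from Raf to ERK it was that of Map2k2, the kinase MEK2, at 279 ± 89.4 and 181 ± 72.8 CPM (adjusted p = 0.244), and the log2 differences of all 9 lay between -0.38 and 0.69.

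Rasal2, a GTPase-activating protein that switches Ras off, was the 1 gene of the pathway called in the fit without pairs. It was at 10.0, 14.9, 8.61 and 16.3 CPM in the Conventionalized animals of pairs A to D and at 85.3, 64.0, 58.4 and 49.0 CPM in the Germfree animals. The lowest Germfree value, 49.0 CPM, was above the highest Conventionalized one, 16.3 CPM. The log2 difference was -2.34 (SE 0.30, limma adjusted p = 0.00548), a 5.05-fold lower level in Conventionalized animals, and it was called in all 18 alternatives, with log2 differences from -2.57 to -2.18. Enteroendocrine marker sums separated the groups in the same direction, and their part in the Rasal2 difference was not tested. Of the other 4 tested genes of Ras and its GTPase-activating proteins 0 were called.

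Of 5 other tested Sprouty and phosphatase genes 0 were called. The phosphatase gene Dusp1 was at 300.4, 98.4, 363.1 and 630.2 CPM in the Conventionalized animals of pairs A to D and at 782.7, 580.9, 1385 and 941.4 CPM in the Germfree animals. As for Errfi1, the Conventionalized animal of pair B was lowest, that of pair D highest in its group and the Germfree animal of pair C highest of all. The log2 difference was -1.61 (SE 0.51) with limma adjusted p = 0.0854, and Dusp1 fell with the littermate block (0.0204), without the Germfree library of pair B (0.0483) and without the 2 libraries that stood apart (0.00219). Of 9 tested ERK-responsive factors and targets 0 were called. Of these 9, 7 had positive and 2 negative log2 differences, with a median of 0.43, against 0.32 for all tested genes. At an unadjusted limma p under 0.05 there were 4, against 27.8% of all tested genes. Their log2 differences were 1.38 for Ccnd1, 1.24 for Myc, -1.18 for Etv1 and -1.15 for Etv5. The groups did not overlap for 2 of the 9, Etv1 and Etv5, against 14.9% of all tested genes. Myc and Etv1 were named after their values were seen. Etv5, an ETS factor induced by ERK, was at 18.7, 10.6, 13.7 and 15.7 CPM in the Conventionalized and 29.1, 20.8, 42.7 and 43.2 CPM in the Germfree animals. The groups did not overlap, by a small margin. The log2 difference was -1.15 (SE 0.32) with limma adjusted p = 0.0551, and Etv5 fell with the littermate block (0.0307), library total scaling (0.046), a pseudocount of 2 (0.0497), library weights (0.046), without the Germfree library of pair B (0.0246) and without the 2 libraries that stood apart (0.0384).

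**Figure D4:**
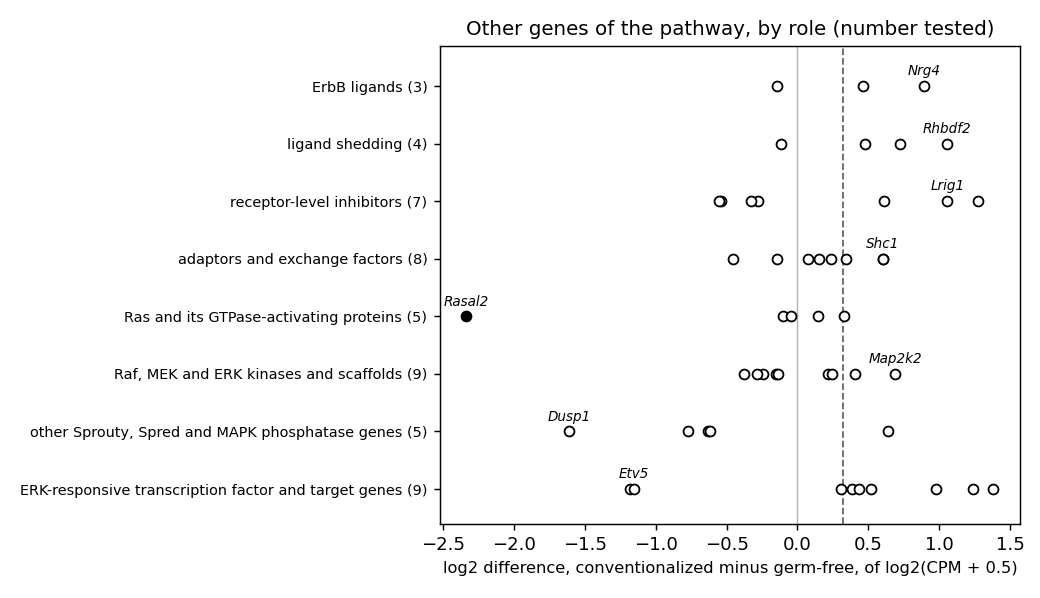
Log2 difference between Conventionalized and Germfree animals of log2(CPM + 0.5) (horizontal axis) for the 50 tested other genes of the pathway, in rows by role with the number tested. Filled points passed limma at an adjusted p under 0.05, open ones did not, and the dashed line at 0.32 is the median of all tested genes. The 1 filled point is Rasal2 at -2.34, and in each other row the labelled gene is the one with the lowest p.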

How the data were processed

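The authors deposited 1 table of normalized signal per gene, not raw counts. Tools named in the submitters' processing notes are DESeq2 1.12.4, STAR 2.4.2a, Trimmomatic 0.36 and R 3.3.1, with the build mm10, and the series text names Salmon and edgeR. Libraries were made from 10 ng of RNA and read as single ends of 100 bp, per the labels' protocols. Values of genes with 1 annotated transcript came out as multiples of a step of their library in 99.8% of cases (tolerance 0.02), against 22.9% for genes with several, so the deposited signal was treated as continuous, and no count test was run. Reads are signal divided by that step.

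TMM factors (published formula, trims of 30% and 5%) turned the signal into CPM. The expression minimum was 10 CPM in 4 libraries. The log2(CPM + 0.5) of genes past it was tested with limma 3.58.1 in R 4.3.3 (trend and robust, condition only, two-sided, Benjamini-Hochberg over all genes tested). Of 48440 genes, 48058 matched GENCODE M21 (GRCm38). RefSeq windows matched 7 of the 9 genes, and printed windows stop at the start site. The procedure was tested on simulated data.

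The labels name the littermate pairs, so the design pairs the libraries. The deviations from group means correlated within pairs A to D at 0.142, -0.156, 0.307 and -0.00634. The paired fit has the pair as a block. The family genes and lists were chosen with earlier results of these data known. Of the other pathway genes, those called were named, and in roles without a call the gene with the lowest p. Each library is a separate animal, per the labels. Reads without molecular identifiers are not independent molecules.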

Additional observations from a re-analysis of the deposited data

How the results depend on the processing

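Errfi1, Erbb2, Dusp6, Spry4, Spred1 and Spred2 kept their sign in all 18 alternatives, and Dusp6 and Spred1 were called in none. Spry2 ran from -0.37 to 0.70. With the littermate pair as replicate block, 1317 genes (812 higher), 6 pathway genes and 1 family gene were called, Errfi1 at -1.10. It changed no other family call. With library weights 1373 genes (765 higher, 608 lower), 5 pathway genes and 1 family gene were called, Erbb2 at 0.87, and Egfr was at -0.19. Library total scaling, which moved the median of all tested genes from 0.32 to 0.09, gave Egfr -0.22 and Erbb3 -0.17. That scaling (603 genes called), upper-quartile scaling (671 genes called, 263 higher) and a pseudocount of 2 (568 genes called, Egfr -0.00076) each called 2 pathway genes. That median was 0.03 with a minimum of 1 CPM and -0.06 with no filter. Genes called higher numbered 45 with no filter and 235 without the 2 libraries that stood apart, where 642 genes and 5 pathway genes were called. Without 1 library at a time the calls ran from 182 to 782 (14 to 410 higher, 151 to 372 lower), with 304, 190, 250 and 280 when Conventionalized animal A, B, C or D was left out and 182 and 782 when Germfree animal A or B was. Pathway calls ran from 1 to 4 and family calls from 0 to 1, the 1 being Errfi1 without the Conventionalized library of pair D. Log2 differences then ran from -0.51 to 0.26 for Egfr, -0.12 to 0.22 for Erbb3, -1.47 to -0.87 for Errfi1 and 0.60 to 0.92 for Erbb2. The cause of these changes was not tested. Read numbers of 6 to 113 limit Spry2 and Spry4.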
